A study of Mus musculus with 12 samples.

Results

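The genes described here encode enzymes that crosslink collagen or prepare it for crosslinking: the lysyl oxidases Lox, Loxl1, Loxl2, Loxl3 and Loxl4, the lysyl hydroxylases Plod1, Plod2 and Plod3, and transglutaminase 2 (Tgm2). They were chosen by symbol, and all 9 had a row among the 24132 gene symbols of the deposited RNA-seq table. Polyadenylated RNA was sequenced from fibroblasts, the connective tissue cells that make collagen, taken from tail tips of neonatal mice backcrossed to C57BL6. The groups were Hotair knockout, Hotair heterozygous and Hotair wild-type cells, with 2 libraries each. Hotair is a long noncoding RNA of the HoxC cluster, and the labels name no driver, agent or further allele. The 6 ChIP-seq libraries of the series are not analysed here.

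Lysyl oxidases are secreted, copper-dependent enzymes that turn lysine and hydroxylysine side chains of collagen and elastin into aldehydes, which then join neighbouring molecules. Lysyl hydroxylases act earlier, inside the cell, where they hydroxylate collagen lysines and so set which crosslinks can form. Transglutaminase 2 works by another chemistry: it joins glutamine to lysine side chains, inside cells and on matrix proteins such as fibronectin.

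Levels are RPKM, reads scaled by exon length and by library depth, which puts genes and libraries on 1 scale. The library medians of log2(RPKM + 1) over the tested genes still differed. They were 2.954 and 2.955 in knockout, 2.939 and 2.961 in heterozygous and 2.877 and 2.874 in wild type. Some small differences below therefore depend on further scaling. Depth moved with genotype: 46.0M to 48.1M aligned read equivalents in the knockout libraries, 31.2M to 33.2M in the heterozygous libraries and 27.9M to 29.6M in the wild-type libraries, and its part in the results was not tested. Hotair was at 0 in both knockout libraries, at 0.213 and 0.172 RPKM in the heterozygous libraries and at 0.247 and 0.183 RPKM in those of wild type. The few reads behind these values, 7.88 and 5.97 read equivalents in heterozygous and 8.12 and 5.69 in wild type, are lower limits. No difference between these 2 genotypes is read from them. The heterozygous libraries also carried Xist, the noncoding RNA of the inactive X chromosome, at a mean of 4.56 RPKM, against 0.0135 RPKM in knockout and 0.0446 RPKM in wild type. The Y-linked gene Ddx3y averaged 2.87 RPKM in knockout, 0.175 RPKM in heterozygous and 1.74 RPKM in wild type. Sex and the heterozygous genotype therefore cannot be told apart in any comparison below that uses the heterozygous libraries. Knockout and wild type shared low Xist and the presence of Ddx3y, but not the level of Ddx3y. Of 4 tested sex-linked genes, 3 were called higher in knockout against wild type (median log2 difference 0.49), where 40.6% of all genes were. The cause was not tested. All 9 fibroblast markers passed the filter on low values, and Col1a1 averaged 985 RPKM in knockout, 1113 RPKM in heterozygous and 1136 RPKM in wild type. By a robust estimate, libraries of a genotype differed from each other with 0.859 times the variance of read counting alone in knockout, 0.858 times in heterozygous and 0.801 times in wild type. As the read equivalents used are lower limits, so are these ratios of library-to-library spread. The labels name no animal or culture for any library, so the p-values below reflect this library-to-library spread alone, which may be technical.

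RefSeq promoter sequences were at hand for 3 of the 9 genes (Plod1, Plod3 and Loxl4). They are shown for that reason alone. All 3 genes had lower means in knockout than in heterozygous and in wild-type cells, as Loxl3 had too. For Plod1 the knockout call against wild type was lost in 2 of 15 alternative fits. Heterozygous means also lay above those of wild type, but for Loxl4 that step did not pass the test and turned under other scalings, and for Plod3 it was lost in 5 of 15 alternative fits. Each stretch holds the 250 bases before the transcription start, 5′ to 3′. Capitals mark 3 motifs on either strand: ACGTG, the core of hypoxia-response elements, GGGCGG, the GC box, and TATAAA, the TATA box.
Plod1 promoter (GRCm38.p6, chr4:147936777-147937026, minus strand): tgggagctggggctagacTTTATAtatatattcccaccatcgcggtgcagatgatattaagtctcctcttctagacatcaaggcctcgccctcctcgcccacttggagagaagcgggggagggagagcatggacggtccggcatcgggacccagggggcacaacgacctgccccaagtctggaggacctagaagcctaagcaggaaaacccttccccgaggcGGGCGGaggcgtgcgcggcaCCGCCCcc
Plod3 promoter (GRCm38.p6, chr5:136986769-136987018, plus strand): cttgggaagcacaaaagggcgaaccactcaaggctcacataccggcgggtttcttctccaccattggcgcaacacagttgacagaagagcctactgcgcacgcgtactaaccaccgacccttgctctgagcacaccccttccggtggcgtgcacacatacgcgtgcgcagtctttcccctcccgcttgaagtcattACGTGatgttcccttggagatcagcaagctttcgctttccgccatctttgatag
Loxl4 promoter (GRCm38.p6, chr19:42612807-42613056, minus strand): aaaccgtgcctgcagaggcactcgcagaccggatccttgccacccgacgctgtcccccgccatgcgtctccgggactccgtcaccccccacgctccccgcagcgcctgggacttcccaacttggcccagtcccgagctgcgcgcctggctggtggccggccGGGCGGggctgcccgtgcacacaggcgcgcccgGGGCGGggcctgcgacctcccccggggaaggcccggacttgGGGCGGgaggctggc

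The 3 promoters held different motifs. The Plod1 promoter held GGGCGG at 28 and 8 bases before the start and TATAAA at 232 bases before it. The Plod3 promoter held 1 ACGTG, 54 bases before the start. The Loxl4 promoter, 76% G and C, held GGGCGG at 89, 56 and 15 bases before the start. Among all 32851 RefSeq promoter stretches of this length, 16.6% held ACGTG, 32.7% held GGGCGG and 12.4% held TATAAA. The letters ACGTG are also part of the E-box CACGTG. A match is a description of the letters, and no binding was measured.

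Among the lysyl oxidases, Lox rose and Loxl2 fell with each genotype step, while Loxl1, Loxl3 and Loxl4 moved by less than 1.5-fold. Lox, the founding member of the family, stood at 434.9 and 434.8 RPKM in the knockout libraries, 270.4 and 269.5 RPKM in the heterozygous libraries and 198.7 and 203.4 RPKM in the wild-type libraries. The 3 genotypes did not overlap, with knockout highest and heterozygous in between. The knockout mean was 2.16 times and the heterozygous mean 1.34 times that of wild type. On the scale of log2(RPKM + 1), the difference was 1.11 ± 0.01 (SE) in knockout against wild type (limma, Benjamini-Hochberg adjusted p = 1.38e-08) and 0.42 ± 0.01 in heterozygous against wild type (limma adjusted p = 1.51e-06).

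Loxl2, a secreted oxidase with scavenger receptor domains that also acts on basement membrane collagen, ran the other way. It stood at 57.0 and 57.4 RPKM in the knockout libraries, 76.5 and 77.3 RPKM in the heterozygous libraries and 150.7 and 150.2 RPKM in the wild-type libraries. Both mutant genotypes lay far below wild type, and knockout lay below heterozygous. The knockout mean was 0.380 times that of wild type (log2 difference -1.38 ± 0.02, limma adjusted p = 1.38e-08), and the heterozygous mean was 0.511 times that of wild type (-0.96 ± 0.02, limma adjusted p = 1.37e-07). By size of the knockout difference, Loxl2 ranked 93rd and Lox 201st of 10897 genes tested.

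Loxl1, known for its role in elastic fibres, was second to Lox in knockout and heterozygous cells and below Loxl2 in wild type. It stood at 107.3 and 107.4 RPKM in the knockout libraries, 79.8 and 82.6 RPKM in the heterozygous libraries and 83.6 and 82.5 RPKM in the wild-type libraries. The heterozygous and wild-type libraries overlapped, and knockout alone stood apart. The rise in knockout against wild type was 0.37 ± 0.02 on the log2 scale (limma adjusted p = 9.49e-06). The heterozygous difference of -0.03 ± 0.02 did not pass the test (limma adjusted p = 0.273). It was called after median scaling (-0.11, limma adjusted p = 0.00382) and its sign turned after quantile normalization (0.02).

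Loxl3, a relative of Loxl2 with the same kind of receptor domains, stood at 36.5 and 37.3 RPKM in the knockout libraries, 53.9 and 54.7 RPKM in the heterozygous libraries and 47.8 and 47.2 RPKM in the wild-type libraries. Levels were lowest in knockout and highest in heterozygous cells, with no overlap. The difference was -0.36 ± 0.03 in knockout and 0.19 ± 0.03 in heterozygous cells against wild type (limma adjusted p = 1.73e-05 and 0.000772), the second 0.12 after median scaling. Loxl4 was the least abundant oxidase, at 6.93 and 6.59 RPKM in the knockout libraries, 8.03 and 7.92 RPKM in the heterozygous libraries and 7.83 and 7.71 RPKM in the wild-type libraries. It fell in knockout against wild type by 0.18 on the log2 scale (limma adjusted p = 0.00578). The heterozygous difference of 0.03 ± 0.04 did not pass (limma adjusted p = 0.513), and its sign turned after quantile normalization (-0.03) and median scaling (-0.04).

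**Figure D1:**
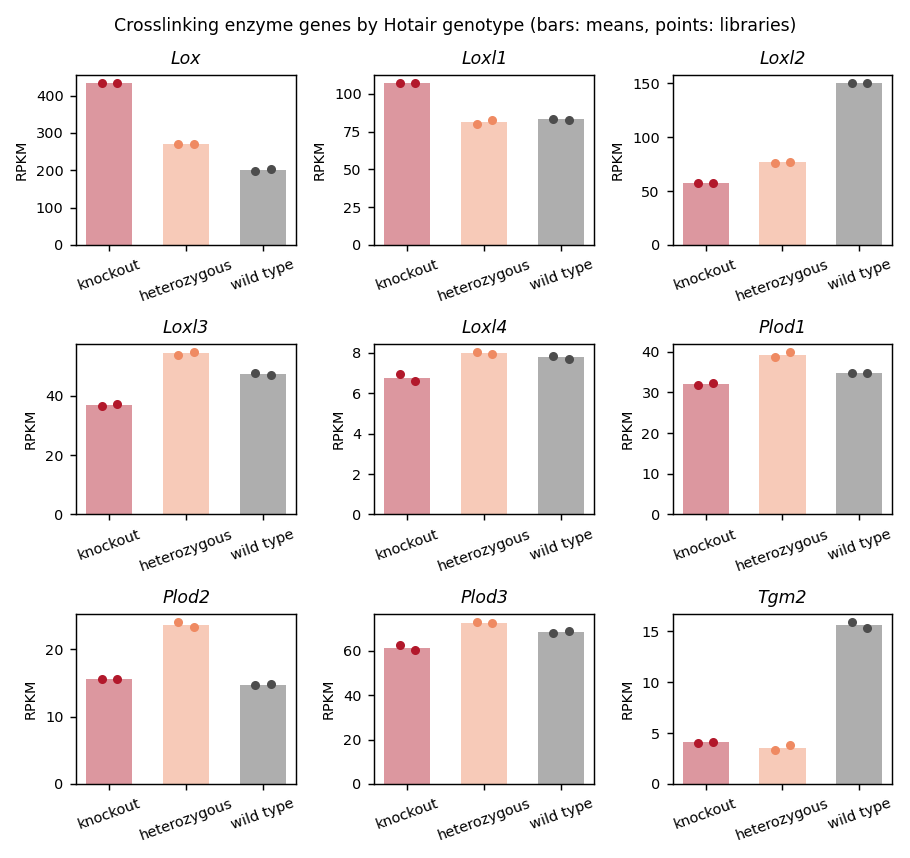
Level of each crosslinking enzyme gene in RPKM (y axis, from 0, on a separate scale for each gene) in knockout, heterozygous and wild-type cells; bars are means and points the 2 libraries of each genotype. Lox climbs to 434.8 RPKM in knockout while Loxl2 and Tgm2 are highest in wild type, and Plod2 is highest in heterozygous cells.

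Lysyl hydroxylases were highest in heterozygous cells. Plod2, which hydroxylates lysines in the ends of the collagen chain, stood at 15.6 and 15.5 RPKM in the knockout libraries, 24.1 and 23.2 RPKM in the heterozygous libraries and 14.7 and 14.8 RPKM in the wild-type libraries. Heterozygous cells stood apart, at 1.604 times the wild-type level (log2 difference 0.65 ± 0.03, limma adjusted p = 7.56e-06). The knockout libraries lay just above the wild-type ones, but the difference of 0.07 ± 0.03 did not pass the test (limma adjusted p = 0.0828) and was -0.007 after median scaling.

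Plod1, which acts mainly on the helical part of collagen, stood at 31.8 and 32.3 RPKM in the knockout libraries, 38.6 and 39.9 RPKM in the heterozygous libraries and 34.6 and 34.7 RPKM in the wild-type libraries. Plod3, which also adds sugars to hydroxylysine, stood at 62.4 and 60.3 RPKM in the knockout libraries, 73.1 and 72.4 RPKM in the heterozygous libraries and 68.0 and 69.1 RPKM in the wild-type libraries. In both genes the 3 genotypes were separate, but the steps were small. Against wild type, Plod1 differed by -0.11 ± 0.03 in knockout and 0.17 ± 0.03 in heterozygous cells (limma adjusted p = 0.0094 and 0.0018), which became -0.19 and 0.10 after median scaling. Plod3 differed by -0.16 ± 0.03 in knockout and 0.08 ± 0.03 in heterozygous cells (limma adjusted p = 0.00102 and 0.0251). These became -0.07 and 0.14 after quantile normalization, and the knockout difference -0.24 after median scaling. The knockout call of Plod1 was lost after quantile normalization (-0.04, limma adjusted p = 0.235) and without the first knockout library (-0.098, limma adjusted p = 0.0614). The heterozygous call of Plod3 was lost in 5 of 15 alternative fits: after median scaling (0.01, limma adjusted p = 0.783), with no intensity trend (adjusted p = 0.0828), and without the first (0.0937) or second heterozygous (0.0569) or the first wild-type library (0.107).

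Tgm2 lay far lower in both mutant genotypes than in wild type. It stood at 4.07 and 4.16 RPKM in the knockout libraries, 3.32 and 3.81 RPKM in the heterozygous libraries and 16.0 and 15.4 RPKM in the wild-type libraries. The wild-type libraries stood far above the other 4, and the lowest level was in heterozygous, not knockout, cells. Wild type was 3.81 times as high as knockout and 4.40 times as high as heterozygous. The log2 difference was -1.70 ± 0.06 in knockout and -1.87 ± 0.06 in heterozygous cells against wild type (limma adjusted p = 5.54e-07 and 7.60e-07), ranking 46th and 12th by size among 10897 genes. With a pseudocount of 5 the knockout difference was -1.18, smaller than the -1.32 of Loxl2.

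Knockout exceeded heterozygous Tgm2 by only 0.17 ± 0.06 (limma adjusted p = 0.0444). That call was lost in 11 of 15 alternative fits, in which the adjusted p reached 0.204. The difference was 0.088 without the first heterozygous library and with a pseudocount of 5 it was 0.09. Among the fits that lost the call were those without the first (0.113) or second knockout (0.16), the first heterozygous (0.204), and the first (0.0591) or second wild-type library (0.059), and the fit with the library number as a block (0.0558). Tgm2 values rest on at least 197 read equivalents in every library, fewer than for any other member.

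Of the other transglutaminases, Tgm4 was the 1 of 7 that passed the filter on low values, and it fell by 0.24 on the log2 scale in knockout against wild type (limma adjusted p = 0.0086; lost without the second knockout library, 0.067). After quantile normalization the difference was -0.47. F13a1, the transglutaminase subunit of clotting factor XIII and a gene of macrophages, stayed at a mean of 0.0163 RPKM in knockout, 0.0155 RPKM in heterozygous and 0.0174 RPKM in wild type.

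**Figure D2:**
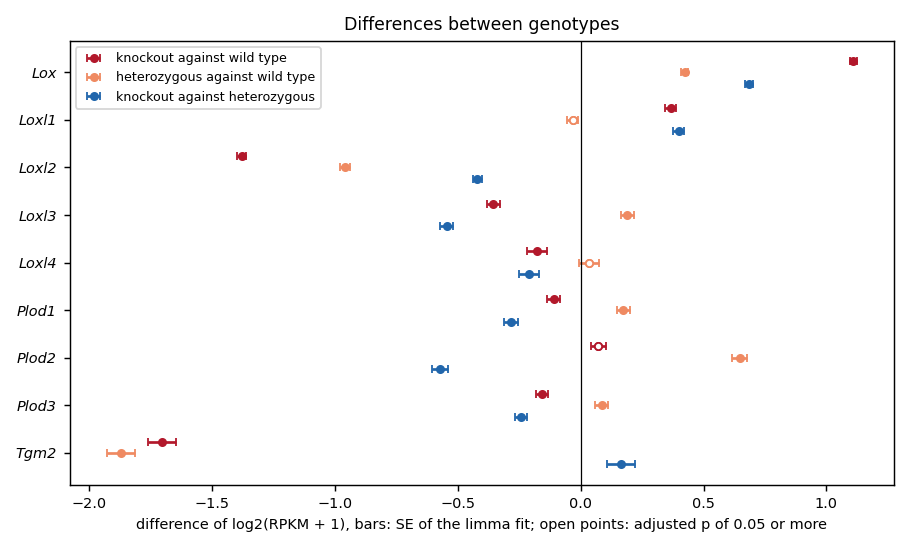
Difference of log2(RPKM + 1) (x axis) for each gene (y axis) for each pair of genotypes; points are estimates of the limma fit, bars their SE, and open points did not pass the adjusted threshold of 0.05. Tgm2 and Loxl2 lie farthest to the left and Lox farthest to the right, and the 3 comparisons share libraries.

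Counted together, 2 of the 9 genes rose and 6 fell in knockout against wild type, with 1 not called. Of all 10897 genes tested, 67.2% were called in this comparison, 40.6% higher and 26.6% lower. That share of calls is high, and the balance depended on scaling: 60.4% of the called genes were higher, which quantile normalization lowered to 46.7% and median scaling to 47.2%. The median log2 difference of the 9 genes was -0.16, beside 0.06 for all genes tested, and their median absolute difference was 0.36, beside 0.21. At least 2-fold changes were rarer, with 2.55% of all genes called at that size (1.83% higher, 0.725% lower), and Lox, Loxl2 and Tgm2 were the members among them.

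In heterozygous against wild type, 5 members rose, 2 fell and 2 were not called, where 52.6% of all genes were called (35.5% higher, 17.1% lower). Genes higher in heterozygous cells made up 67.5% of those called, a share of 51.1% under quantile normalization and 45.5% under median scaling. The median log2 difference was 0.08 for the members and 0.07 for all genes. Of changes of at least 2-fold, found in 1.18% of genes (0.771% higher, 0.413% lower), Tgm2 was the 1 member. Loxl2 fell just short of that size at -0.96, and passed it after median scaling (-1.03). Between knockout and heterozygous cells all 9 members were called, 3 higher and 6 lower in knockout, where 51.8% of all genes were called (26.4% higher, 25.4% lower). No member reached 2-fold there, as 0.725% of all genes did (0.486% higher, 0.239% lower). The Tgm2 call in this comparison was lost in 11 of 15 alternative fits. Among the 9, Lox was 0.69 ± 0.01 higher, Loxl1 0.40 ± 0.02 higher, Loxl2 0.42 ± 0.02 lower, Loxl3 0.55 ± 0.03 lower and Plod2 0.57 ± 0.03 lower on the log2 scale (limma adjusted p of 1.90e-05 or less for each).

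The heterozygous level was also set against the midpoint of knockout and wild type on the log2 scale. All 9 genes lay off the midpoint, 5 above and 4 below, where 36.8% of all genes did (22.4% above, 14.5% below); Tgm2 was the 1 member 2-fold or more away, as were 0.395% of all genes (0.202% above, 0.193% below). Tgm2 lay 1.02 ± 0.05 below it (limma adjusted p = 1.23e-05), just past 2-fold, and differed by -0.94 without the first heterozygous library and by -0.68 with a pseudocount of 5. Plod2 lay 0.61 ± 0.03 above it (limma adjusted p = 9.15e-06), at a level above both other genotypes. Lox lay closer, 0.13 ± 0.01 below the midpoint (limma adjusted p = 0.000336; -0.076 after quantile normalization), and Loxl2 0.27 ± 0.02 below it (limma adjusted p = 3.46e-05). The call of Loxl4 (0.12 ± 0.03, limma adjusted p = 0.0299) was lost in 6 fits: after quantile normalization (0.0783) or median scaling (0.0989), and without the second knockout (0.0915), the first (0.128) or second heterozygous (0.0937) or the second wild-type library (0.061).

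The make-up of the lysyl oxidase family shifted from Loxl2 towards Lox. Summed over the 5 genes, levels were 642.7 and 643.5 RPKM in the knockout libraries, 488.6 and 492.1 RPKM in the heterozygous libraries and 488.6 and 491.0 RPKM in the wild-type libraries. The sum in heterozygous cells overlapped that of wild type, although Lox was higher and Loxl2 lower in each heterozygous library than in either wild-type one. Lox made up 67.6% ± 0.0762 of the sum in knockout, 55.1% ± 0.399 in heterozygous and 41.0% ± 0.533 in wild-type cells (SD, n = 2 each). Loxl2 made up 8.90% ± 0.0321 in knockout, 15.7% ± 0.0333 in heterozygous and 30.7% ± 0.171 in wild-type cells. Loxl1 kept a near-constant share, with means of 16.7% in knockout, 16.6% in heterozygous and 17.0% in wild-type cells. The ratio of Lox to Loxl2, which 1 scaling factor per library does not change, was 7.63 and 7.58 in the knockout libraries, 3.53 and 3.49 in the heterozygous libraries and 1.32 and 1.35 in the wild-type libraries.

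Lysyl hydroxylases kept a steadier make-up. Plod3 was the most abundant in every library and gave between 53.4% and 58.3% of the summed level. Plod2 made up 14.3% ± 0.109 of that sum in knockout, 17.4% ± 0.409 in heterozygous and 12.5% ± 0.0277 in wild-type cells (SD, n = 2 each).

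**Figure D3:**
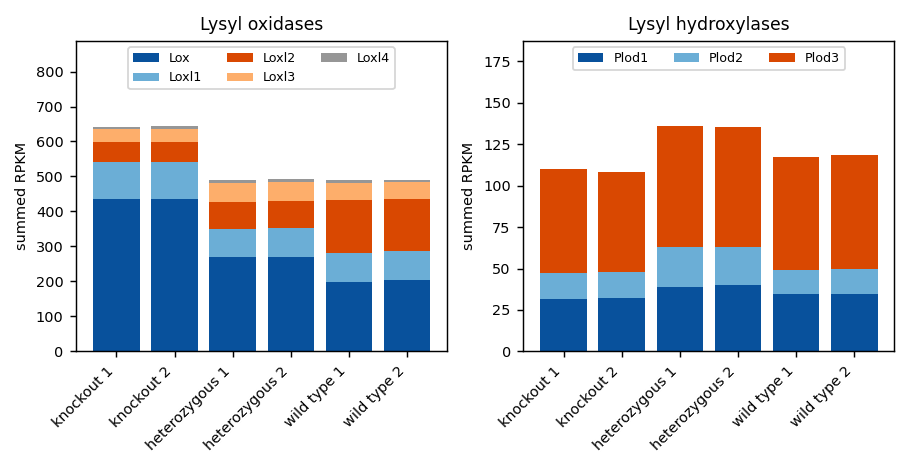
Summed RPKM (y axis, from 0) of the 5 lysyl oxidase genes (left) and the 3 lysyl hydroxylase genes (right) in each of the 6 libraries (x axis), stacked by gene. The Lox part reaches 67.6% of the oxidase sum in knockout cells and the Loxl2 part shrinks to 8.90%, while the hydroxylase sum is highest in heterozygous cells.

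Most tested substrates of these enzymes fell in knockout. Of 10 fibrillar collagen and elastin genes, 7 passed the filter, and in knockout against wild type 0 rose, 6 fell and 1 did not pass (median log2 difference -0.21), where 26.6% of all genes tested fell and 40.6% rose. Col5a3, a minor fibrillar chain, fell to 15.7 RPKM in knockout, against 37.0 RPKM in wild type (-1.19 ± 0.04, limma adjusted p = 4.56e-07). Col1a2, of type I collagen, averaged 302 RPKM in knockout and 380.1 RPKM in wild type (-0.33). Col3a1 averaged 113 RPKM in knockout and 137 RPKM in wild type (-0.28), and Col5a2 274 RPKM in knockout and 317 RPKM in wild type (-0.21). Elastin itself (Eln) was barely present, at a mean of 0.0268 RPKM in knockout, 0.016 RPKM in heterozygous and 0.0141 RPKM in wild type. Relative to Col1a1, itself 0.21 lower in knockout than in wild type on the log2 scale, Lox stood at 44.2% and 44.1% of the Col1a1 level in the knockout libraries, 25.1% and 23.4% in the heterozygous libraries and 17.4% and 18.0% in the wild-type libraries. In heterozygous against wild type, 1 of the 7 rose and 2 fell (median -0.03), where 35.5% of all genes rose and 17.1% fell. These counts became 3 and 2 after quantile normalization (median 0.02) and 1 and 5 after median scaling (median -0.11).

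Other collagen-modifying enzymes and chaperones gave 2 rises and 7 falls of 13 tested in knockout against wild type (median -0.22). Of all genes, 40.6% rose and 26.6% fell. In either direction, the share called was near the 67.2% of all genes. The 2 rises and 7 falls became 2 and 8 after quantile normalization and 1 and 10 after median scaling. Serpinh1, the collagen chaperone of the endoplasmic reticulum, averaged 479 RPKM in knockout and 591 RPKM in wild type (-0.30). P4hb, the shared subunit of the prolyl hydroxylases, averaged 377 RPKM in knockout and 447 RPKM in wild type (-0.25). Fkbp10, a chaperone that works with lysyl hydroxylase 2, fell by 0.29 and Lepre1, a prolyl 3-hydroxylase, by 0.38 on the log2 scale (limma adjusted p of 4.80e-05 or less for each of the 4 genes). Heterozygous cells gave 2 rises and 7 falls against wild type as well (median -0.11), where 35.5% of all genes rose and 17.1% fell. These counts became 2 and 4 after quantile normalization and 0 and 8 after median scaling.

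Of 13 tested genes of propeptide cleavage and lysyl oxidase activation, 3 rose and 6 fell in knockout against wild type (median -0.13). Of all genes, 40.6% rose and 26.6% fell. In either direction, the share called was again near the 67.2% of all genes. After median scaling 2 rose and 8 fell. Bmp1, the protease that cuts the Lox propeptide, averaged 38.3 RPKM in knockout, 42.4 RPKM in heterozygous and 63.5 RPKM in wild type (-0.72 ± 0.03 in knockout and -0.57 ± 0.03 in heterozygous against wild type, limma adjusted p = 7.45e-07 and 4.33e-06). In both mutant genotypes it lay below wild type, where Lox lay above. Of the collagen propeptide proteases, Adamts14 averaged 1.61 RPKM in knockout, 1.54 RPKM in heterozygous and 4.06 RPKM in wild type. Adamts2 averaged 8.55 RPKM in knockout, 20.1 RPKM in heterozygous and 16.0 RPKM in wild type, with heterozygous highest and knockout lowest. Pcolce2, an enhancer of propeptide cleavage, fell by 0.51 in knockout against wild type. In heterozygous against wild type, 3 rose and 6 fell (median -0.04), where 35.5% of all genes rose and 17.1% fell. These counts became 2 and 4 after quantile normalization (median 0.005) and 2 and 7 after median scaling.

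Lox, Loxl2, Plod1 and Plod2 are known targets of the hypoxia-inducible factors. Among 14 further hypoxia-response genes, 12 rose and 2 fell in knockout against wild type (median 0.42), and 12 rose and 0 fell in heterozygous against wild type (median 0.37). Of all genes, 40.6% rose in knockout and 35.5% in heterozygous against wild type. After median scaling the heterozygous counts were 10 and 1, and after quantile normalization 13 and 0; the knockout counts were the same under both scalings. Adm, the vasodilator peptide adrenomedullin, averaged 63.6 RPKM in knockout, 44.9 RPKM in heterozygous and 33.0 RPKM in wild type. Bnip3, a mitochondrial protein of mitophagy, averaged 9.09 RPKM in knockout, 5.42 RPKM in heterozygous and 3.57 RPKM in wild type, and Kdm3a, a histone demethylase, averaged 3.63 RPKM in knockout, 2.93 RPKM in heterozygous and 1.83 RPKM in wild type. Pgk1, a glycolytic enzyme, was an exception at 218 RPKM in knockout, 278 RPKM in heterozygous and 280.1 RPKM in wild type. Of the crosslinking enzymes among these targets, Lox rose in both mutant genotypes, Loxl2 fell in both and Plod2 rose in heterozygous cells. Plod1 rose in heterozygous cells and fell in knockout, a fall whose call was lost in 2 of 15 alternative fits. No source used here gives the oxygen level in culture, and a part of hypoxia in these differences was not tested.

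TGF-beta response genes split in knockout against wild type, with 3 of 10 higher and 5 lower (median -0.12), where 40.6% of all genes were higher and 26.6% lower. Ctgf, a matricellular growth factor, averaged 214.5 RPKM in knockout, 281 RPKM in heterozygous and 453 RPKM in wild type. Ltbp2, a microfibril protein, and Tgfbi, a collagen-binding matrix protein, rose by 0.68 and 0.78 in knockout against wild type. In heterozygous against wild type 5 rose and 5 fell (median -0.01), where 35.5% of all genes rose and 17.1% fell. These counts became 3 and 4 after quantile normalization and 2 and 5 after median scaling.

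Retinoic acid is a known inducer of Tgm2. Of 8 retinoic acid response genes 4 passed the filter, and Cyp26b1 and Rarres1 passed only through libraries of the mutant genotypes, so that no count is read from this list. Cyp26b1, which degrades retinoic acid, averaged 1.55 RPKM in knockout, 2.04 RPKM in heterozygous and 0.606 RPKM in wild type, so that both mutant genotypes exceeded wild type. Rarres1 averaged 0.930 RPKM in knockout, 1.44 RPKM in heterozygous and 0.601 RPKM in wild type. Dhrs3, a retinaldehyde reductase, fell by 0.48, and Crabp2, a retinoic acid carrier, fell by 0.25 in knockout against wild type.

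**Figure D4:**
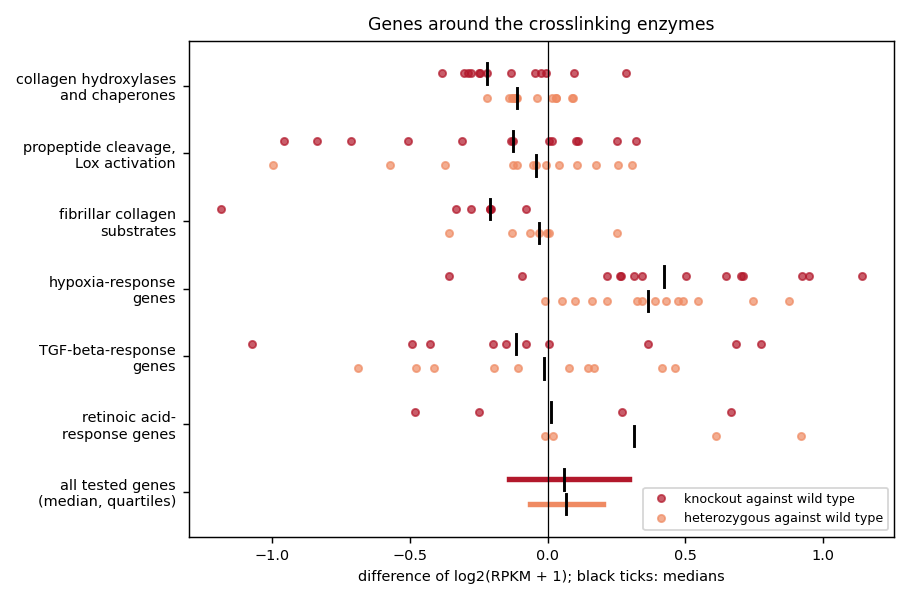
Difference of log2(RPKM + 1) (x axis) for the tested genes of 6 lists around the crosslinking enzymes (y axis) in knockout and in heterozygous against wild type; points are genes, black ticks medians, and the lowest line shows the median and quartiles of all genes tested. Fibrillar collagen substrates have a median of -0.21 and hypoxia-response genes a median of 0.42 in knockout, beside 0.06 for all genes; the comparisons share the wild-type libraries.

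Markers of other cell types moved with genotype. Summed levels of 12 macrophage markers were 55.3 and 55.7 RPKM in the knockout libraries, 8.44 and 7.62 RPKM in the heterozygous libraries and 10.4 and 9.10 RPKM in the wild-type libraries. Lyz2, a lysozyme gene, averaged 23.7 RPKM in knockout, 1.23 RPKM in heterozygous and 3.13 RPKM in wild type, and Cd14, a lipopolysaccharide receptor gene, 1.97 RPKM in knockout, 1.68 RPKM in heterozygous and 1.71 RPKM in wild type. Several of these markers passed the filter only through the knockout libraries, so no count of rises is given. The leukocyte marker Ptprc averaged 0.063 RPKM in knockout, 0.0111 RPKM in heterozygous and 0.0119 RPKM in wild type, and Emr1 and Ctss were at 0 in heterozygous cells. Summed levels of 6 Schwann cell markers ranged from 14.96 to 15.7 RPKM in knockout, 32.6 to 33.6 RPKM in heterozygous and 26.6 to 26.7 RPKM in wild type, with heterozygous highest and knockout lowest, as for Loxl3 and Plod1. The 9 fibroblast markers summed to 3709 and 3741 RPKM in knockout, 4134 and 4227 RPKM in heterozygous and 4558 and 4576 RPKM in wild type, with 3 higher and 6 lower in knockout against wild type. In heterozygous against wild type 5 of them were higher and 2 lower (median 0.25), although the sum was lower. Of all genes, 40.6% were higher and 26.6% lower in knockout against wild type. In heterozygous against wild type these shares were 35.5% and 17.1%. The sums of 7 osteoclast markers were 38.2 and 38.3 RPKM in knockout, 13.9 and 16.2 RPKM in heterozygous and 20.2 RPKM in both wild-type libraries. Acp5 gave a mean of 23.6 RPKM of this in knockout, 0.668 RPKM in heterozygous and 0.695 RPKM in wild type. The osteoclast list did not move in 1 direction. Of the 3 markers that passed the filter, 2 were called higher and 1 lower in knockout against wild type. The part of these cells in the crosslinking enzyme results was not tested, and in bulk RNA fewer cells of a type and less RNA per cell cannot be told apart. The 7 endothelial markers summed to at most 0.264 RPKM in any library, with Emcn at 0 throughout, and the 6 keratinocyte markers to at most 0.866 RPKM. Chondrocyte markers (5 genes) summed to 7.16 and 7.57 RPKM in knockout, 6.95 and 6.93 RPKM in heterozygous and 3.49 and 3.70 RPKM in wild type, most of it Sox9.

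Some members share their locus with other genes on the RefSeq annotation of GRCm38.p6, and no source used here says whether reads were counted by strand. Htra2, a mitochondrial protease gene that overlaps Loxl3, fell by 0.37 in knockout against wild type and by 0.11 in heterozygous against wild type on the log2 scale, the second a direction opposite to that of Loxl3. Znhit1, which overlaps Plod3, rose by 0.20 in knockout against wild type, opposite to Plod3. B430319G15Rik, a noncoding RNA overlapping Plod2, averaged 0.453 RPKM in knockout, 0.496 RPKM in heterozygous and 0.256 RPKM in wild type, far below Plod2. Mir702, which overlaps Plod3, did not differ past the threshold in either mutant genotype against wild type. The RefSeq table lists Gm27177, a noncoding RNA, and Mir6950 as overlapping Loxl2 and Mir7040 as overlapping Loxl3, for which no level is given here, and no overlapping gene for Lox, Loxl1, Loxl4, Plod1 or Tgm2.

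The 5 genes whose pattern over the 6 libraries lay nearest to Lox, by Euclidean distance of log2(RPKM + 1) centred on each gene's mean, were Rb1cc1 (distance 0.094), Nptx1 (0.125), Adam8 (0.131), Ranbp2 (0.134) and Lrrc4c (0.134). Adam8, a membrane metalloproteinase, averaged 26.7 RPKM in knockout, 15.7 RPKM in heterozygous and 10.8 RPKM in wild type. The nearest to Tgm2 were Uchl1 (distance 0.15), 1500015A07Rik (0.24), Slfn2 (0.46), Lce1h (0.48) and Lce1i (0.48). Uchl1, a deubiquitinase, stood at 7.85 and 7.67 RPKM in knockout, 7.03 and 7.37 RPKM in heterozygous and 29.8 and 30.2 RPKM in wild type. Nptx1, at a mean of 1.95 RPKM in knockout, 0.707 RPKM in heterozygous and 0.277 RPKM in wild type, passed the filter only through knockout. The mean of 1500015A07Rik was 0.304 RPKM in knockout, 0.356 RPKM in heterozygous and 3.75 RPKM in wild type. It passed only through wild type. For such low genes the added 1 shrinks differences, so a small distance does not mean a like fold change. Such likeness rests on 6 libraries in 3 pairs, and many genes that differ between genotypes by a like amount would give it.

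**Figure D5:**
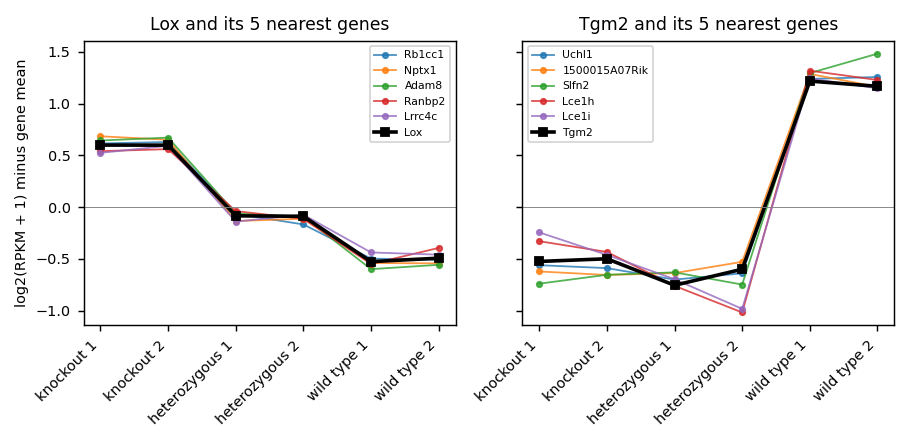
Level as log2(RPKM + 1) minus the gene's mean (y axis) in the 6 libraries (x axis) for Lox (left, black) and Tgm2 (right, black) with the 5 genes nearest to each in colour; lines only join the points of a gene. The Lox group steps down from knockout through heterozygous to wild type, and the Tgm2 group is low in both mutant genotypes and high in wild type.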

How the data were processed

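The polyadenylated RNA libraries used dUTP to mark strand, per the labels' protocols. The submitters' processing notes name TopHat and the mm9 build. The authors deposited 1 RPKM value per gene symbol and library, in columns named after coverage tracks (bedGraph), per the file headers, over RefSeq genes, per the table's name. The header gives no unit, and RPKM was identified from the numbers. Values times the length of single-exon genes repeat at multiples of 1 step per library, the worth of 1 read, which gave the depths; a read was taken as 74 bases. Read equivalents use the smallest exon length that makes aligned bases whole (tolerance 0.002) and are lower limits. Members' replicates differed from each other by at most 2.44 SD of counting noise. Over all genes the replicates' mean squared z was 1.64 in knockout, 1.37 in heterozygous and 1.14 in wild type, so they were kept as 2 libraries.

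A limma model (version 3.58.1, R 4.3.3) of log2(RPKM + 1) had 3 genotype means, an intensity trend and 3 residual degrees of freedom. Two-sided p-values were adjusted by Benjamini-Hochberg over the 10897 genes that reached 1 RPKM in 2 libraries or more, with a threshold of 0.05. All 9 members passed this filter. Such log2 differences understate the change of low genes. The fit was tested on simulated data. Named genes were the members, the 5 nearest genes for the members with the largest rise and fall, and the 4 lowest p-values of each pathway list for the knockout difference; Ddx3y, Xist, Col1a1, Eln, F13a1 and marker or overlapping genes are named outside this rule. A gene that the rule names is not reported here. Members and lists were chosen with earlier results of these data known. Alternatives changed pseudocount, filter, scaling, trend, groups fitted, library number as a block, or left out 1 library.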

Additional observations from a re-analysis of the deposited data

How the results depend on the processing

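Across 15 alternative fits of the 9 genes in 4 comparisons (540 values), 515 kept their side of the threshold, 24 lost the call and 1 gained it, all for Plod1, Plod3, Loxl4, Tgm2 and Loxl1 as given above, and no called member changed sign. In knockout against wild type the members called were 2 higher in every fit and between 5 and 6 lower. Ranges in heterozygous against wild type were 4 to 5 higher and 2 to 3 lower, and in knockout against heterozygous 2 to 3 higher and 6 lower. For knockout against wild type, Lox ranged from 1.03 to 1.13, Loxl2 from -1.46 to -1.26 and Tgm2 from -1.90 to -1.18, the smallest size of Tgm2 with a pseudocount of 5. Rarres1 turned to -0.034 in knockout and Col5a2 to 0.074 in heterozygous against wild type after quantile normalization; the cause was not tested. Over all genes, higher calls in knockout against wild type numbered 4421, against 2291 with a filter at 5 RPKM, which tests fewer genes. In heterozygous against wild type the counts were 3865 higher and 1864 lower, against 2280 higher with that filter, 2397 higher after quantile normalization, and 2371 higher and 2839 lower after median scaling. Knockout against heterozygous gave 2880 higher, against 1611 with the filter at 5 RPKM. Genes above the midpoint numbered 2438, against 1503 without the second heterozygous library. Same-numbered libraries did not deviate together (correlations of -0.06, -0.09 and 0.06 for knockout and wild type, heterozygous and wild type, and knockout and heterozygous). By the robust estimate, replicates differed about as much as read counting alone, while their mean squared z was 1.64 in knockout, 1.37 in heterozygous and 1.14 in wild type. With so little spread beyond counting in most genes, these correlations cannot tell whether same-numbered libraries share a source or a run. With the library number as a block, the call of Tgm2 in knockout against heterozygous was lost (0.17, limma adjusted p = 0.0558) and no other member's call changed. With 2 libraries per genotype, left-out fits assume that the lone library varies like the others.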
